A study of Mus musculus with 11 samples.

Results

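The genes of the integrated stress response and of the unfolded protein response were followed in the livers of 11 male C57BL/6J mice, 5 of the AAV-NC group and 6 of the AAV-TuD group. The members were 40 genes chosen by symbol, namely stress sensors, ATF4 and CHOP regulators, amino acid and one-carbon genes, chaperones and folding factors of the endoplasmic reticulum (ER), and XBP1 and ER-associated degradation (ERAD) genes. Of the 40, 35 were among the 13669 genes of the count table, and all 35 passed the filter on low counts. For *Atf3*, *Trib3*, *Asns* and *Mthfd2* this rested on the AAV-TuD livers, since few AAV-NC livers had more than 10 reads. The remaining members, *Chac1*, *Nupr1*, *Psat1*, *Phgdh* and *Slc7a11*, are not in the count table. They entered only the search of promoter sequences, and their expression was not analysed here.

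Animals of both groups were wild type (WT), were fed regular chow and received a recombinant adeno-associated virus (rAAV, serotype 8) by tail vein, at a dose that the study's methods give as 5e11 genome copies. In the AAV-TuD group the virus carried a tough decoy, a hairpin RNA with a binding site for *miR-379* and another for *miR-541*, and in the AAV-NC group a negative control sequence. Both were expressed from the liver-specific LP1 promoter, so the control animals also carried a virus and a transcribed insert. The study's methods give, for its TuD animals in general, an age of 6 weeks on arrival, a fast of 5 to 6 h before killing and 4 weeks to 3 months between virus and killing. The age and time of these 11 animals are not given in the sources used here.

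A cell that meets misfolded protein in the ER, or runs short of amino acids, slows protein synthesis and turns on a set of repair genes. The kinases PERK (*Eif2ak3*) and GCN2 (*Eif2ak4*) phosphorylate the initiation factor eIF2, which lowers general translation but favors translation of the transcription factor ATF4, whose targets serve amino acid supply and, through CHOP, cell death. The ER sensors IRE1α (*Ern1*) and ATF6 act on transcription more directly, since IRE1α splices the *Xbp1* mRNA into its active form and ATF6 is cleaved to a nuclear factor, and both raise chaperones and degradation factors. Hepatocytes secrete large amounts of protein and depend on this system. The counts measured RNA levels only, not phosphorylation of eIF2, splicing of *Xbp1* or cleavage of ATF6.

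Libraries were made from 500 ng RNA with a kit that reads the 3′ end of polyadenylated transcripts, and each liver had from 8148531 to 12043959 reads on genes. Values below are normalised read counts (CPM), in which the reads of a gene are set against the TMM-scaled library size of the liver. Livers differed in the share of reads on the major urinary protein (*Mup*) genes, and 3 of them stood apart. In AAV-NC 7 these genes took 38.6% of the reads, in AAV-TuD 3 and AAV-TuD 5 30.9% and 28.4%, and in the other 8 livers between 8.09% and 18.7%. All 5 hepatocyte markers were detected, with a summed level of 33425 to 39799 CPM in AAV-NC and 41236 to 47658 CPM in AAV-TuD, and *Alb* gave most of it (17185 to 23301 CPM and 25671 to 33283 CPM). The list went both ways, since 3 of the 5 had negative fold changes. In edgeR's test *Hnf4a* was called lower (log2 fold change −0.38, adjusted p = 0.0150) and the others were not, though the groups did not overlap for *Serpina1c* (4297 to 4944 CPM in AAV-NC and 2778 to 4159 CPM in AAV-TuD, −0.35, adjusted p = 0.0631) or *Alb* (0.41, adjusted p = 0.0805), and DESeq2 and limma-voom each called 1 of the 5 higher and 2 lower. Of all genes tested, 7.24% were called higher and 4.33% lower. Of the same 13334 genes DESeq2 called 1060 higher and 751 lower, and limma-voom 953 and 690. Summed levels of stellate cell markers were 193 to 250 CPM in AAV-NC and 336 to 447 CPM in AAV-TuD (6 of 8 genes higher), and those of cholangiocyte markers 20.3 to 40.9 CPM and 47.5 to 79.3 CPM (4 of 4 tested higher). Kupffer cell markers were at 50.2 to 80.0 CPM and 60.4 to 172 CPM (3 of 6 higher), proliferation genes at 4.63 to 14.6 CPM and 13.3 to 57.5 CPM (4 of 4 tested higher), and sinusoidal endothelial markers at 196 to 219 CPM and 195 to 212 CPM (0 of 6 called, 0 at an unadjusted p under 0.05, and 0 with DESeq2). The cholangiocyte list held 6 genes and the proliferation list 5, so not all of them were tested. *Epcam* (0.332 to 1.13 CPM in AAV-NC), *Krt19* (0.389 to 1.38 CPM) and *Cdk1* (0.501 to 1.75 CPM) passed the low-count filter through the AAV-TuD livers. Their calls are therefore not independent of that filter. No marker among those tested was at 0 in all livers. Of the plasma and B cell list 1 of 7 genes could be tested (*Igkc*, log2 fold change 0.09, not called), and of the T and NK cell list 0 of 4. In bulk liver RNA, fewer cells of a type and less RNA per cell cannot be told apart, and the part of these marker shifts in the results below was not tested.

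The decoy addresses the following miRNAs, printed because matches to their seeds (bases 2 to 8, in capitals) were looked for in the members' transcripts. The sequences are from RefSeq on GRCm38.p6, at chr12:109709065-109709085 and chr12:109742422-109742446, both on the + strand. The 5p arms are shown, which are those the study's list of miRNA assays names for the mouse.
mmu-miR-379-5p: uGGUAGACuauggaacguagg
mmu-miR-541-5p: aAGGGAUUcugauguuggucacacu

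Most of the stress response genes did not pass the test between the groups. Of the 35 genes tested, 4 passed an adjusted p under 0.05 (11.4%), and 11.6% of all 13334 genes tested did so. *Atf3* was the only 1 higher with AAV-TuD (2.86% of members, against 7.24% of all genes), and *Ern1*, *Dnajc3* and *Canx* were lower (8.57%, against 4.33%). These shares rest on 4 genes, of which *Atf3* passed the low-count filter through the AAV-TuD livers. The 3 lower genes were also the only members with no overlap between the groups (8.57%), and 7.39% of all genes showed no overlap, 3.28% with the AAV-TuD livers lower. The median log2 fold change over the 35 members was −0.09, with 23 of them negative, and over all genes −0.0024, with 50.4% negative. For 22 of the 35 members the whole 95% interval of the fold change lay within 1.5-fold in either direction, and for 30 within 2-fold. Of all 13334 genes tested, 7561 and 11281 had intervals within these limits.

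**Figure D1:**
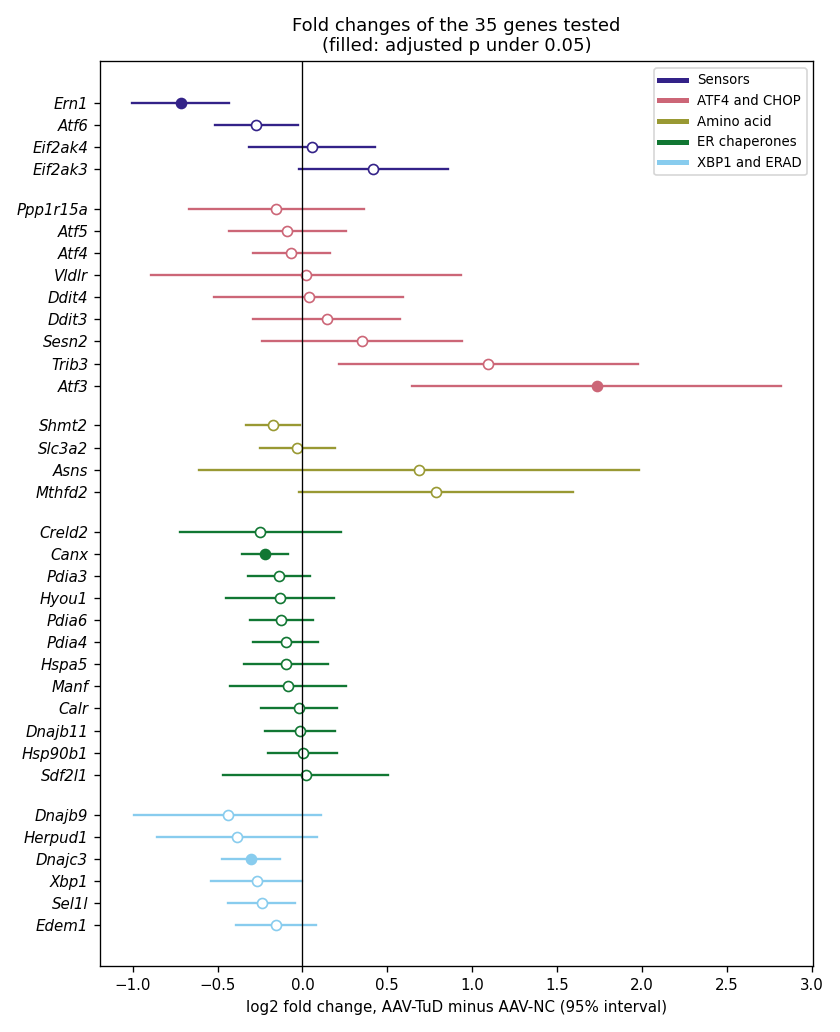
Log2 fold change (x axis, AAV-TuD minus AAV-NC) of each of the 35 genes tested (y axis), grouped by branch, with its 95% interval as a bar. Filled points mark the 4 genes with an adjusted p under 0.05, which are *Ern1*, *Dnajc3* and *Canx* to the left of 0 and *Atf3* to the right. Most chaperones lie close to 0 with narrow intervals.

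Among the 4 stress sensors, *Ern1*, which encodes IRE1α (ENSMUSG00000020715, chr11:106394650-106487852 on GRCm38, minus strand), changed most. Its level was 19.9, 19.3, 24.2, 19.2 and 21.9 CPM in AAV-NC 1, 2, 6, 7 and 8, and the AAV-TuD livers ranged from 10.003 CPM through a median of 12.3 CPM to 16.8 CPM. All 6 AAV-TuD livers lay below all 5 AAV-NC livers. The log2 fold change was −0.72 (SE 0.13, 95% interval −1.003 to −0.43, adjusted p = 0.00384), a level 1.64-fold lower on 161 reads per liver on average. The call was kept in each of the 11 fits with 1 liver left out, with log2 fold changes between −0.81 and −0.65, and at −0.79 (adjusted p = 0.00386) without the 3 livers rich in *Mup* reads. It was lost under library size alone (−0.51, adjusted p = 0.0829), where the median of all genes was itself at 0.23. Relative to that median the difference was −0.74, and −0.71 with TMM.

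*Atf6*, the sensor that becomes a transcription factor itself, was at 39.0, 33.6, 38.2, 36.1 and 37.1 CPM in AAV-NC 1, 2, 6, 7 and 8. The AAV-TuD livers had a lowest level of 24.3 CPM, a median of 28.8 CPM and a highest of 41.4 CPM. Of these, 5 were below every AAV-NC liver, whereas AAV-TuD 3 was above all of them. With all livers the log2 fold change was −0.27 (SE 0.12, interval −0.52 to −0.02, adjusted p = 0.147) and the gene was not called. Without AAV-TuD 3 it was −0.38 (adjusted p = 0.0124), and without the 3 livers rich in *Mup* reads −0.37 (adjusted p = 0.0428). *Atf6* was also the only member with a match to the *miR-541-5p* seed in its longest annotated 3′ UTR (GENCODE M21). The match, in capitals, begins at base 2219 of 5205 and is shown with its neighboring bases.
Atf6: aaagagctagAATCCCTgggctcggta

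The eIF2 kinases were measured on few reads. *Eif2ak3* (PERK) was at 4.30, 3.78, 2.77, 5.01 and 3.50 CPM in AAV-NC 1, 2, 6, 7 and 8, and its AAV-TuD levels ran from 3.79 CPM through a median of 5.04 CPM to 7.74 CPM. The groups overlapped, with 3 AAV-TuD livers above the AAV-NC range. Its log2 fold change was 0.42 (SE 0.21, interval −0.02 to 0.86, adjusted p = 0.212). *Eif2ak4* (GCN2, which senses uncharged tRNA) was at 4.54, 6.67, 5.76, 4.01 and 3.41 CPM in the AAV-NC livers in the same order, and between 4.41 and 6.01 CPM with a median of 4.85 CPM in AAV-TuD. All AAV-TuD livers lay inside the AAV-NC range, and the log2 fold change was 0.06 (interval −0.32 to 0.43, adjusted p = 0.882). An annotated transcript overlaps *Eif2ak3* on the opposite strand, and the strand setting of the counting is not given in the sources used here.

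**Figure D2:**
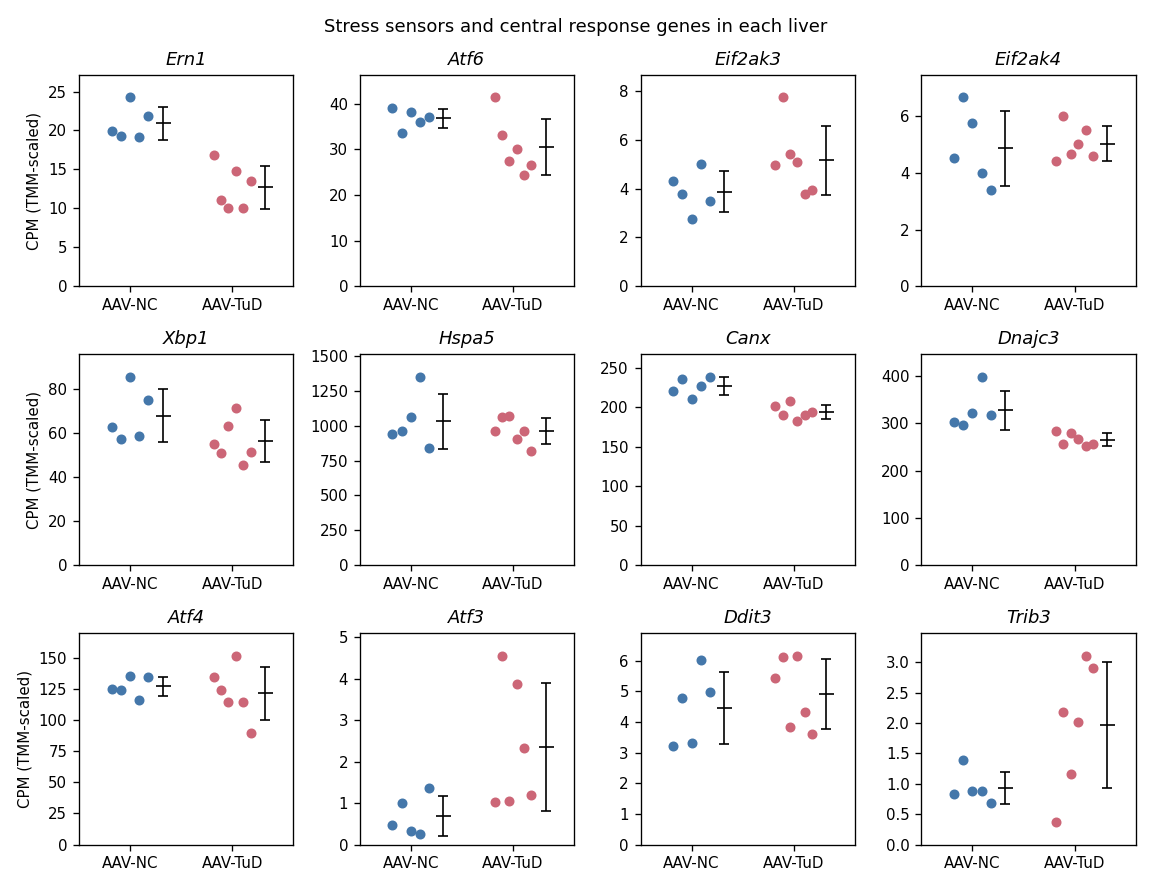
CPM after TMM scaling (y axis, from 0) of 12 sensors and central response genes in each liver, AAV-NC on the left and AAV-TuD on the right of each panel. Points are livers, and the bar beside them is the mean with its SD (n = 5 and n = 6). *Ern1*, *Canx* and *Dnajc3* show no overlap between the groups, and in *Atf3* 3 AAV-TuD livers stand above all others.

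The factor at the center of the integrated stress response, *Atf4*, was at 125, 124, 135, 116 and 134 CPM in AAV-NC 1, 2, 6, 7 and 8. In AAV-TuD its lowest level was 89.4 CPM, its median 119 CPM and its highest 151 CPM. The AAV-TuD livers lay on both sides of the AAV-NC range, and the log2 fold change was −0.06 (interval −0.29 to 0.16, adjusted p = 0.757). ATF4 is regulated mainly in translation, which these counts do not show. *Ddit3*, which encodes CHOP, was at 3.22, 4.78, 3.32, 6.01 and 4.96 CPM in the AAV-NC livers and between 3.59 and 6.15 CPM, with a median of 4.88 CPM, in AAV-TuD. The groups overlapped almost entirely (log2 fold change 0.14, interval −0.29 to 0.57, adjusted p = 0.716). *Ddit3* shares 68 bases with *Mars1* on the opposite strand. Among other members, *Atf5* (571 bases), *Hsp90b1* (4598 bases) and *Pdia3* (18 bases) also share bases with a gene on the opposite strand.

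*Atf3*, a stress-induced transcription factor downstream of ATF4 (ENSMUSG00000026628, chr1:191170296-191218039 on GRCm38, minus strand), was higher with AAV-TuD at a very low level. It was at 0.477, 1.01, 0.332, 0.250 and 1.36 CPM in AAV-NC 1, 2, 6, 7 and 8. AAV-TuD 3, 4, 5, 9, 10 and 11 had 1.03, 4.56, 1.06, 3.89, 2.33 and 1.197 CPM. AAV-TuD 4, 9 and 10 were above every AAV-NC liver, and the other AAV-TuD livers lay inside the AAV-NC range. The log2 fold change was 1.73 (SE 0.51, interval 0.65 to 2.82, adjusted p = 0.0387) on 17.4 reads per liver, with 2 to 50 reads in single livers. AAV-NC 8, with 14 reads, was the only AAV-NC liver above the 10 reads of the filter. *Atf3* was thus tested through the AAV-TuD livers, and its call is not independent of the filter. Only 4 of the 11 fits with 1 liver left out kept the call. It was lost without AAV-NC 1, 2, 6 or 7 (adjusted p = 0.0853, 0.0530, 0.0912 and 0.0841) and without AAV-TuD 4, 9 or 10 (adjusted p = 0.0902, 0.0823 and 0.0648), with log2 fold changes between 1.45 and 1.88 in these fits, and in limma-voom with quality weights (adjusted p = 0.0645).

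*Atf3* is also an immediate early gene. The summed level of 5 other genes of that class was 25.8 to 47.8 CPM in AAV-NC and 41.2 to 88.2 CPM in AAV-TuD, with overlap, and 2 of the 5 were called higher, against 7.24% of all genes, 2 with DESeq2 and 1 with limma-voom. *Jun*, a partner of ATF3 in AP-1 dimers, ranged from 7.88 to 14.9 CPM in AAV-NC and from 17.3 to 26.7 CPM in AAV-TuD, without overlap (log2 fold change 0.81, adjusted p = 0.00564). *Egr1* had a log2 fold change of 2.99 (adjusted p = 0.0229), with 45.5 CPM in AAV-TuD 11 alone, and it too passed the low-count filter through the AAV-TuD livers. Whether these shifts bear on *Atf3* was not tested. *Atf3* was the only member with a match to the *miR-379-5p* seed in its longest annotated 3′ UTR (GENCODE M21). The match, in capitals, begins at base 325 of 1186.
Atf3: aggcagaagtGTCTACCttgataggtg

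Matches to the seeds of *miR-379-5p* and *miR-541-5p* were rare among the members. The study reports that the decoy also lowered other miRNAs of the same cluster, and their seeds were not searched. The site of *miR-379-5p* was held by 1 of 35 members (2.86%) and by 567 of 10922 tested genes with a 3′ UTR (5.19%), and that of *miR-541-5p* by 1 of 35 members and by 977 of 10922 genes (8.95%). A match is a run of letters and not evidence of binding. *Atf3*, with the *miR-379-5p* match, was higher with AAV-TuD, and *Atf6*, with the *miR-541-5p* match, had a negative fold change.

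The other 6 ATF4 and CHOP regulators had 0 calls in edgeR's test, where 11.6% of all genes were called. At an unadjusted p under 0.05 there was 1 (*Trib3*), and DESeq2 and limma-voom called 0. *Trib3*, a pseudokinase induced by CHOP that restrains insulin signaling, had the largest of their fold changes (1.09, SE 0.41, interval 0.21 to 1.97, adjusted p = 0.0998). It ranged from 0.681 to 1.38 CPM in AAV-NC and from 0.376 to 3.10 CPM in AAV-TuD. AAV-NC 2, with 11 reads, was the only AAV-NC liver above 10 reads, so *Trib3* also passed the filter through the AAV-TuD livers. The AAV-TuD livers were spread to both sides, since 4 were above every AAV-NC liver and AAV-TuD 3 was below all of them. *Trib3* was called without AAV-TuD 3 (1.31, adjusted p = 0.0104), without the 3 livers rich in *Mup* reads (1.45, adjusted p = 0.00856) and with library size alone (1.38, adjusted p = 0.0285). *Sesn2*, a leucine sensor that restrains mTORC1, was at 0.35 (interval −0.24 to 0.94), and *Ddit4*, another inhibitor of mTORC1, at 0.04 (interval −0.52 to 0.59). *Ppp1r15a*, the GADD34 subunit that reverses eIF2 phosphorylation, was at −0.15 (interval −0.67 to 0.36), the mitochondrial stress factor *Atf5* at −0.09 (interval −0.43 to 0.26) and the lipoprotein receptor *Vldlr* at 0.02 (interval −0.89 to 0.93). The wide intervals of *Atf3*, *Trib3* and *Vldlr* go with means of 15.1 to 17.4 reads per liver.

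Genes of amino acid and one-carbon supply, which ATF4 induces, were likewise not called (0 of 4 in edgeR's test, against 11.6% of all genes). At an unadjusted p under 0.05 there was 1, and DESeq2 and limma-voom called 0. *Shmt2*, the mitochondrial serine hydroxymethyltransferase, had a log2 fold change of −0.17 (interval −0.33 to −0.01, adjusted p = 0.154). *Mthfd2*, which follows it in the mitochondrial folate pathway, was at 0.79 (interval −0.02 to 1.59, adjusted p = 0.202), with 4 AAV-TuD livers above the AAV-NC range and 1 below it. *Asns*, asparagine synthetase and a classic ATF4 target, was at 0.69 with an interval from −0.61 to 1.98. Without AAV-NC 8 it was 1.83 (adjusted p = 0.0684), and with limma-voom 1.71 (adjusted p = 0.225), and it was not called. Its level ran from 0 reads in AAV-NC 6 to 47 reads in AAV-NC 8, so that the spread inside the control group was wider than the difference. *Slc3a2*, the heavy chain of several amino acid exchangers, was at −0.03 (interval −0.25 to 0.19).

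Intervals were narrow for most of the 12 ER chaperones and folding factors, and wider for *Creld2* and *Sdf2l1*. For 11 of them the 95% interval lay within 1.5-fold, and 10 had a negative fold change (83.3%, against 50.4% of all genes). Their median was −0.10. A negative direction was not a stable property of the group. With AAV-NC 7 left out, 4 of the 12 were negative and their median was 0.05, and with library size alone all 12 were above 0, although 9 of them were still below the median of all genes. *Hspa5*, which encodes BiP, the chaperone that holds the sensors inactive, was at 936, 958, 1063, 1350 and 839 CPM in AAV-NC 1, 2, 6, 7 and 8. AAV-TuD livers ran from 821 CPM through a median of 962 CPM to 1066 CPM. The groups overlapped, with AAV-NC 7 above all other livers, and the log2 fold change was −0.10 (interval −0.34 to 0.15, adjusted p = 0.657). Without AAV-NC 7 it was 0.02.

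*Canx* (ENSMUSG00000020368, chr11:50293961-50325673 on GRCm38, minus strand) encodes calnexin, the membrane lectin that holds new glycoproteins until they are folded. It was the only chaperone of the 12 called, and it was lower (8.33%, against 4.33% of all genes). AAV-NC 1, 2, 6, 7 and 8 had 221, 236, 209.96, 227 and 238 CPM, and the AAV-TuD livers 182 CPM at the lowest, 192 CPM at the median and 207 CPM at the highest. No AAV-TuD liver reached the AAV-NC range, though the gap between the nearest livers was small. The log2 fold change was −0.22 (SE 0.06, interval −0.35 to −0.09, adjusted p = 0.0326), or 1.17-fold lower. The call was kept in 3 of 11 fits with a liver left out. It was lost without AAV-NC 1, 2, 7 or 8 (adjusted p = 0.0518, 0.0762, 0.0581 and 0.0740) and without AAV-TuD 4, 9, 10 or 11 (adjusted p = 0.0734, 0.0806, 0.0644 and 0.0622). Log2 fold changes in these fits were between −0.23 and −0.20. The call was also lost with library size alone, where the log2 fold change was 0.0049 (adjusted p = 0.988). Relative to the median of all genes the difference was −0.23 under that scaling and −0.22 with TMM. Calreticulin (*Calr*), the soluble partner of calnexin, was at −0.02 (interval −0.24 to 0.20), and *Pdia3*, the disulfide isomerase that works with both, at −0.14 (interval −0.32 to 0.05).

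The other 8 members of this group had log2 fold changes between −0.25 and 0.02, with adjusted p values of 0.405 or more. *Hsp90b1* (GRP94) was at 0.0010 (interval −0.20 to 0.21), the isomerases *Pdia4* and *Pdia6* at −0.10 (interval −0.29 to 0.09) and −0.12 (interval −0.31 to 0.06), and *Dnajb11*, a cochaperone of BiP, at −0.01 (interval −0.22 to 0.19). *Hyou1*, a nucleotide exchange factor of BiP, was at −0.13 (interval −0.45 to 0.19) and *Manf*, a secreted ER stress protein whose gene overlaps others, at −0.08 (interval −0.43 to 0.26). *Creld2* was at −0.25 (interval −0.72 to 0.22) and *Sdf2l1* at 0.02 (interval −0.47 to 0.51).

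All 6 genes of the XBP1 and ERAD branch had negative fold changes, with a median of −0.29, where 50.4% of all genes were negative. Of the 6, 1 was called, lower (16.7%, against 4.33% of all genes). *Dnajc3* (ENSMUSG00000022136, chr14:118937976-118981697 on GRCm38, plus strand) encodes p58IPK, an ER cochaperone also known as an inhibitor of eIF2 kinases. It was at 303, 296, 321, 398 and 318 CPM in AAV-NC 1, 2, 6, 7 and 8, and the AAV-TuD livers ranged from 253 CPM through a median of 261 CPM to 284 CPM. Every AAV-TuD liver was below the AAV-NC range, and AAV-NC 7 was far above the rest. The log2 fold change was −0.30 (SE 0.08, interval −0.47 to −0.13, adjusted p = 0.0239). It was −0.22 without AAV-NC 7 (adjusted p = 0.0524), and the call was also lost without AAV-TuD 4, 10 or 11 (−0.29, −0.28 and −0.29, adjusted p = 0.0565, 0.0537 and 0.0534) and with library size alone (−0.06, adjusted p = 0.850). Relative to the median of all genes it was −0.29 under that scaling and −0.30 with TMM. Without all 3 livers rich in *Mup* reads it was −0.26 and called (adjusted p = 0.0370).

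*Xbp1*, the transcription factor that IRE1α activates by splicing, was at 62.8, 57.5, 85.7, 58.6 and 75.1 CPM in AAV-NC 1, 2, 6, 7 and 8. AAV-TuD livers had 45.7 CPM at the lowest, 53.2 CPM at the median and 71.5 CPM at the highest. The groups overlapped, with 4 AAV-TuD livers below the AAV-NC range (log2 fold change −0.27, interval −0.54 to −0.01, adjusted p = 0.182). The 3′ reads do not tell spliced from unspliced *Xbp1*. *Sel1l*, the adaptor of the main ERAD ubiquitin ligase, was at −0.24 (interval −0.44 to −0.04, adjusted p = 0.105), and *Edem1*, which delivers misfolded glycoproteins to degradation, at −0.16 (interval −0.39 to 0.08). *Herpud1*, a membrane component of ERAD, was at −0.38 (interval −0.85 to 0.09) and *Dnajb9*, the ERdj4 cochaperone that helps BiP repress IRE1α, at −0.44 (interval −0.99 to 0.11). The sign of the branch was the same in all 6 genes without AAV-NC 7 (median −0.18) and without the 3 livers rich in *Mup* reads (median −0.25). With library size alone 4 of 6 were negative and all 6 were below the median of all genes.

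Among these ER genes AAV-NC 7 was the liver with the highest level for 14 of 18 under TMM scaling, 9 of the 12 chaperones and 5 of the 6 XBP1 and ERAD genes. For 2 of the 18 it was still the highest with library size alone, and AAV-TuD 4 and AAV-TuD 10 were then the highest for 7 and 6. AAV-NC 7 had the largest share of *Mup* reads and a TMM factor of 0.667, the lowest of the 11 (the others 0.884 to 1.24), and the part of this scaling in its high ER gene levels was not tested. In the 17 genes of the other branches AAV-NC 7 was highest for 1. The mean of log2 CPM over the 12 chaperones was 7.50 in AAV-NC 7, 6.91 to 7.03 in the remaining AAV-NC livers and 6.84 to 7.18 in AAV-TuD. Over the XBP1 and ERAD genes this mean was 6.26 to 6.86 in AAV-NC and 5.98 to 6.53 in AAV-TuD, lowest in AAV-TuD 10.

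**Figure D3:**
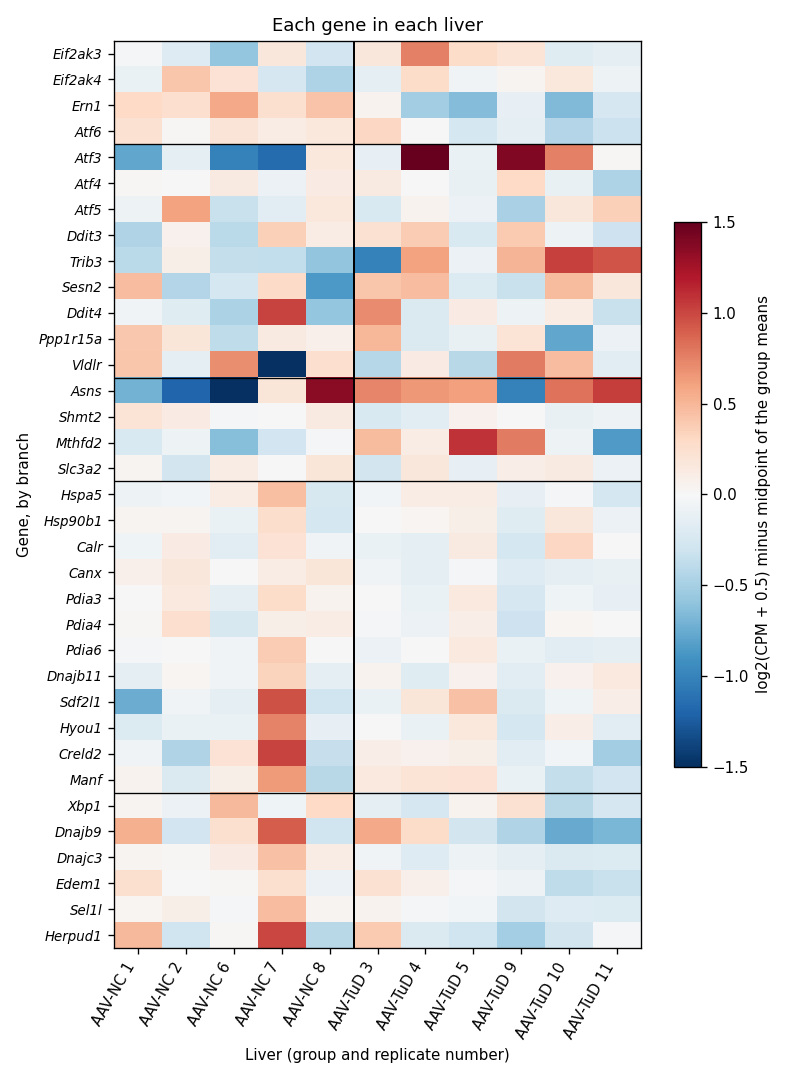
Each of the 35 genes (rows, by branch) in each of the 11 livers (columns), as log2(CPM + 0.5) minus the midpoint of its group means, red for higher and blue for lower, with colors saturated at 1.5 in either direction. AAV-NC 7 is red for most chaperone, XBP1 and ERAD genes, and *Ern1* is red in the AAV-NC livers and mostly blue in the AAV-TuD livers.

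Scaling moved the direction of small differences. Under library size alone all genes together had a median of 0.23 and 95.1% of 1457 calls were higher with AAV-TuD, against 62.6% of 1543 calls with TMM. Under that scaling *Atf3* and *Trib3* were called higher and no member lower.

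**Figure D4:**
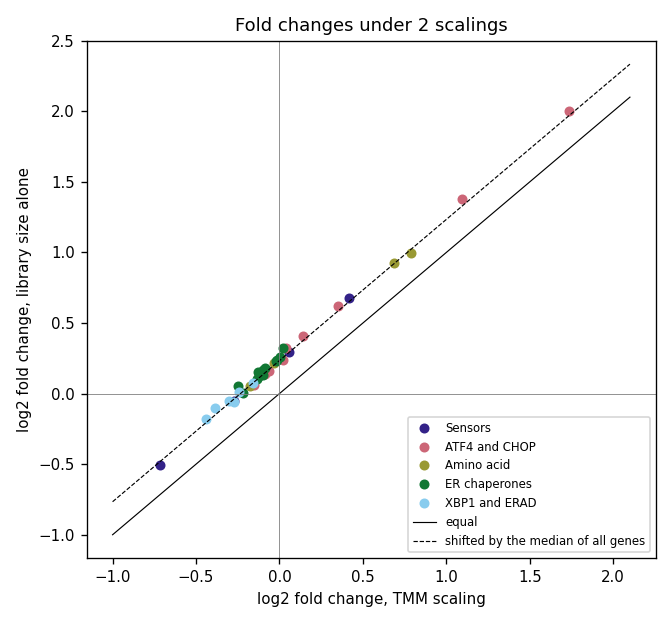
Log2 fold change of each member with TMM scaling (x axis) and with library size alone (y axis), colored by branch. Points follow the dashed line, which is the line of equality (solid) raised by the median of all genes, so members near 0 with TMM are above 0 with library size alone.

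The chaperones belong to the most abundant transcripts of these livers, and abundance itself went with the fold change. Because the kit gives a transcript about 1 read site whatever its length, CPM can be ranked between genes. Of the 12 chaperones 9 were in the top decile of tested genes by mean log2 CPM, as were 14 of the 35 members, and the median log2 fold change of that decile was −0.13. In the lowest decile, which held 4 members, it was 0.15. The median over the 12 chaperones was −0.10, and over the 6 XBP1 and ERAD genes −0.29. Of the latter, *Dnajc3*, *Sel1l* and *Herpud1* were abundant too, with group means between 108 and 327 CPM. The part of abundance in either median was not tested.

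Promoters of the ER genes carry a shared element, the ER stress response element (ERSE), which ATF6 binds together with NF-Y. Windows from 250 bases upstream to 50 bases downstream of the RefSeq start sites (GRCm38.p6) were searched on both strands for CCAAT followed, after any 9 bases, by CCACG. Of the 37 members with a window, 7 held it (18.9%), and so did 37 of all 27025 genes with one (0.137%, or 39 of 32851 windows). Several members were chosen as known ATF6 and XBP1 targets, so this share is a description of the list. These were *Calr*, *Canx*, *Creld2*, *Dnajc3*, *Hsp90b1*, *Hspa5* and *Pdia6*. Their log2 fold changes ran from −0.30 to 0.0010, and *Canx* and *Dnajc3* were called lower. The elements of these 2 genes are shown with those of *Hspa5* and *Pdia6*, which were not called, with the fixed bases in capitals, on the coding strand of each gene. They lie at chr11:50325795-50325823 (*Canx*), chr14:118937822-118937850 (*Dnajc3*), chr2:34772020-34772048 (*Hspa5*) and chr12:17266486-17266514 (*Pdia6*), and begin 145, 105, 65 and 98 bases upstream of the start.
Canx: attgaCCAATcaccacgctCCACGaagaa
Dnajc3: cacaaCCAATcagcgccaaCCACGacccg
Hspa5: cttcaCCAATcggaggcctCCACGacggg
Pdia6: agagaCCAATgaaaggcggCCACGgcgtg

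A second form, ERSE-II (ATTGG and CCACG with any 1 base between them), was in the windows of *Dnajb11* and *Herpud1* (5.41% of members, 0.0444% of all genes with a window). The XBP1-bound element TGACGTGG was in none of the 37 (0.714% of all genes). The element bound by ATF4 and C/EBP, searched as TGATGNAAT, was found in *Nupr1* alone (2.70% of members, 1.08% of all genes). The cyclic AMP response element TGACGTCA, which reads the same on both strands, was found in *Ppp1r15a* alone (2.03% of all genes). No member held matches to more than 1 of these 5 elements. No window was used for *Hyou1*, *Atf6* and *Manf*. A match is a description of the letters, and a window without one says only that these letters are not in it.

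Other genes of the same pathways, from lists written by hand, gave a like picture. Of 20 cytosolic aminoacyl-tRNA synthetases, several of which ATF4 induces, none was called in edgeR's test, where 11.6% of all genes were. Their median log2 fold change was −0.02 (range −0.28 to 0.25). At an unadjusted p under 0.05 there were 4, and DESeq2 and limma-voom each called 1 lower. All 20 had a 95% interval within 1.5-fold. Of 14 genes of the eIF2 machinery none was called either (median −0.04), with 2 at an unadjusted p under 0.05 and 0 with DESeq2 or limma-voom. Of 44 further ER genes, 20 for folding and redox and 24 for ERAD and translocation, 35 had negative fold changes, against 50.4% of all genes. With library size alone 6 of the 20 and 5 of the 24 were negative, although 14 and 20 were below the median of all genes. Without AAV-NC 7, 14 of the 20 and 19 of the 24 were negative, with medians of −0.08 and −0.10. DESeq2 called 6 of the 44 lower and limma-voom 5, where they called 751 and 690 of all 13334 genes lower. In edgeR's test 4 of the 44 were called, all lower (9.09%, against 4.33% of all genes). They were *Uggt1*, the folding sensor that sends glycoproteins back to calnexin (−0.36, adjusted p = 0.00763, 48.6 to 63.7 CPM in AAV-TuD and 63.9 to 78.4 CPM in AAV-NC), *Hspa13* (−0.55, adjusted p = 0.00640), the cargo receptor *Lman1* (−0.36, adjusted p = 0.0213) and *Ssr1*, a subunit of the translocon-associated complex (−0.31, adjusted p = 0.0181). Livers did not overlap for *Uggt1*, and for the other 3 AAV-TuD 3 was inside the AAV-NC range while the remaining 5 AAV-TuD livers were below it.

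Among 16 tested of 22 other ATF4-linked genes, 2 were higher and 1 lower, where 7.24% and 4.33% of all genes were called. DESeq2 called 3 higher and 2 lower, and limma-voom 2 and 2. *Gdf15*, a secreted stress hormone that ATF4 and CHOP can induce, was at 4.06, 7.18, 5.53, 7.64 and 6.52 CPM in AAV-NC 1, 2, 6, 7 and 8. AAV-TuD livers had 11.4 CPM at the lowest, 17.97 CPM at the median and 36.5 CPM, in AAV-TuD 4, at the highest. The groups did not overlap (log2 fold change 1.73, SE 0.27, adjusted p = 0.00114). *Nfe2l2*, which encodes the antioxidant factor NRF2, was also higher without overlap (0.69, adjusted p = 0.00211), and *Cbs*, which starts the transsulfuration of homocysteine, was lower (−0.46, adjusted p = 0.0292). The median of the 16 was −0.10.

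In other protein folding systems, *Hspe1*, the mitochondrial cochaperonin, was the only 1 of 8 mitochondrial chaperones and proteases called (−0.29, adjusted p = 0.0261), a share of 12.5% against 11.6% of all genes. DESeq2 called 1 of the 8 higher and 2 lower, and limma-voom 1 lower. Of 12 cytosolic heat shock genes, 1 was called, lower (8.33%, against 4.33% of all genes), and DESeq2 called 3 of the 12 lower and limma-voom 1. The gene called in edgeR's test was *Hspb1*, which encodes a small heat shock protein (−1.28, adjusted p = 0.00876). It ranged from 88.5 to 303 CPM in AAV-NC and from 51.2 to 128 CPM in AAV-TuD, with 5 AAV-TuD livers below the AAV-NC range and AAV-TuD 5 inside it. The medians of these lists were −0.13 and −0.20. Without AAV-NC 7 they were −0.13 and −0.06. With library size alone they were 0.10 and 0.04, where the median of all genes was 0.23.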

How the data were processed

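Liver RNA of 5 AAV-NC and 6 AAV-TuD mice was examined, grouped by the sample labels. The authors used BBDuk for trimming, STAR 2.5.3a for alignment to GRCm38 and Rsubread for counting, and the deposited table holds whole, unnormalized counts. Each gene in it had 10 or more reads in at least 5 livers, so genes below that level are absent from it. The annotation, the strand setting and the treatment of reads matching several genes are not given in the sources used here. Positions are from GENCODE M21 (GRCm38), which holds 13658 of the 13669 gene identifiers.

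The 13334 genes that exceeded 10 reads in 5 or more livers entered edgeR (4.0.16, R 4.3.3; glmQLFit and glmQLFTest), with TMM scaling, group as the only term and Benjamini-Hochberg adjustment over all genes tested. The authors' own analysis used DESeq2 1.38.3. A gene was called at an adjusted p under 0.05. Log2 CPM used a prior count of 2. Standard errors were the absolute log2 fold change divided by the square root of the F statistic, and intervals cover 95%. A gene at 1 CPM had about 10 reads per liver, so differences at this level carried large counting error. The test was checked on simulated counts with 200 changed genes of 13334. It recovered 82% of these, 52% at 1.5-fold, 78% at 2-fold, 100% at 3-fold and 98% at 4-fold, and 4.09% of its calls were unchanged genes. The simulated counts had no difference between livers in the share of *Mup* reads, no liver set apart and fewer changed genes than were called here. Their shares may therefore not hold for these data. Lists were described by counts and medians, with no test over a list.

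Alternatives were the Wald test of DESeq2 1.42.0, edgeR with the size factors of DESeq2, with upper-quartile factors or with library size alone, TMM without the 22 *Mup* genes or without the 50 genes with most reads, no further filter, filterByExpr, limma-voom 3.58.1 with quality weights and the omission of single livers. Removal of the 3 livers with over 20% of reads on *Mup* genes was added after the data had been seen. The members and all lists were chosen with earlier results of these data known. Values per liver are given for the sensors and central factors and for each called member, the other members by fold change and interval, and from each wider list at most the 4 called genes with the smallest p are named. *Hnf4a*, *Alb*, *Serpina1c*, *Igkc*, *Jun*, *Egr1*, *Epcam*, *Krt19* and *Cdk1* were named after their values were seen. Promoters and miRNAs are RefSeq sequences (GRCm38.p6), and 3′ UTRs are from GENCODE M21. Some genes are not reported here. No column of other samples was used.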

Additional observations from a re-analysis of the deposited data

Results flagged for a closer look

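In 8 of 70 groups of values (35 genes in 2 groups of livers) 1 liver lay apart from the others by Dixon's criterion at 95%, and chance gives about 1 in 20, or 3.5 of 70. The values below give the distance to the next liver as a share of the whole range of its group. AAV-NC 7 was the highest of its group for *Hyou1* (0.918, 170 CPM), *Pdia6* (0.862, 201 CPM), *Sel1l* (0.798, 161 CPM), *Ddit4* (0.781, 31.7 CPM), *Dnajc3* (0.759, 398 CPM) and *Sdf2l1* (0.725, 47.8 CPM). This liver also had the largest share of *Mup* reads (38.6%) and the lowest TMM factor (0.667), and their part in these values was not tested. AAV-TuD 3 was the highest of its group for *Ddit4* (0.655, 25.7 CPM), and it too had a large share of *Mup* reads (30.9%). AAV-TuD 9 was the lowest of its group for *Asns* (0.664, 0.486 CPM).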

How the results depend on the processing

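The number of genes called among all genes tested was 1543, between 1012 (without AAV-TuD 4) and 1829 (without AAV-TuD 3) with a liver left out, and stayed within 1.5 times the main number in the other alternatives. Members called higher numbered 1, and were 2 with library size alone, 0 with limma-voom, 2 without the 3 livers rich in *Mup* reads and 0 to 2 with a liver left out. Members called lower numbered 3, and were 0 with library size alone and 1 to 4 with a liver left out. With library size alone, which raised the median of all genes to 0.23, the log2 fold change turned positive in *Atf4* (0.16), *Atf5* (0.14), *Ppp1r15a* (0.058), *Shmt2* (0.054), *Slc3a2* (0.22), *Hspa5* (0.17), *Calr* (0.23), *Canx* (0.0049), *Pdia3* (0.10), *Pdia4* (0.13), *Pdia6* (0.13), *Dnajb11* (0.24), *Hyou1* (0.15), *Creld2* (0.050), *Manf* (0.18), *Edem1* (0.074) and *Sel1l* (0.0090). *Hsp90b1*, at 0.0010, turned negative with DESeq2 (−0.0046), its size factors in edgeR (−0.0047), without the *Mup* genes (−0.0012), without the 50 genes with most reads (−0.00098), without a further filter (−0.0015) and with limma-voom (−0.021). Without the 3 livers rich in *Mup* reads *Slc3a2* (0.057), *Calr* (0.026), *Dnajb11* (0.052) and *Hyou1* (0.031) turned positive. With a liver left out the sign was not kept in *Eif2ak4* (−0.054 to 0.19), *Atf4* (−0.13 to 0.013), *Atf5* (−0.18 to 0.080), *Ddit4* (−0.13 to 0.42), *Vldlr* (−0.26 to 0.28), *Slc3a2* (−0.096 to 0.020), *Hspa5* (−0.16 to 0.021), *Hsp90b1* (−0.059 to 0.073), *Calr* (−0.086 to 0.035), *Dnajb11* (−0.051 to 0.080), *Sdf2l1* (−0.13 to 0.37), *Hyou1* (−0.20 to 0.091), *Creld2* (−0.37 to 0.071) and *Manf* (−0.19 to 0.098). None of these genes other than *Canx* was called with all livers, and the cause of these changes was not tested.

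No paired analysis was possible because no replicate number occurs in both groups. A gene at 1 CPM had about 10 reads in a library. Near this level, *Atf3*, *Trib3*, *Asns*, *Mthfd2* and *Vldlr* had intervals that allow changes of over 1.5-fold in at least 1 direction. The same held at higher read counts for *Eif2ak3*, *Ern1*, *Sesn2*, *Ddit4*, *Ppp1r15a*, *Creld2*, *Dnajb9* and *Herpud1*, the last with 1300 reads per liver on average.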
